A study of Homo sapiens with 16 samples.

Results

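The serine and one-carbon enzyme genes described here are PHGDH, PSAT1 and PSPH of serine synthesis, SHMT1 and SHMT2, which turn serine into glycine, MTHFD1, MTHFD1L and MTHFD2 of the folate cycle, and PCK2 and ASNS, enzymes of linked steps. They were selected by gene symbol, as enzymes of these steps. The rule used no measured value, but the group was chosen with earlier results of these data known. They are 10 of the 57500 genes in the files. All 10 passed the filter on low counts and were among the 17306 genes tested.

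RNA-seq was run on 16 samples of HEK293T, cells of human embryonic kidney origin with the large T antigen, in 4 groups of 4. The first group (E92K DMSO) carried a lentivector for H2A(E92K), a histone H2A with lysine in place of a glutamate, and was labelled DMSO in the sample titles. The other 3 groups carried a lentivector for H2A. Of these, JQ1 cells received 1 µM JQ1, an inhibitor of the BET bromodomain proteins, for 3 h. Pinometostat cells received 2.5 µM pinometostat, an inhibitor of the histone H3 methyltransferase DOT1L, for 24 h. H2A DMSO cells were labelled DMSO in the titles. For both DMSO groups the treatment field reads none and no time is given, so compound, time and handling cannot be told apart in either comparison with DMSO. All 16 samples grew in serum, all carried a lentivector, and an untransduced line was not analysed here. The sources used here do not give the promoter of the lentivector or say whether a line is a clone or a pool. Samples are numbered, but nothing states that they came from separate cultures. The p-values therefore measure only how far these samples spread, which may be technical.

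Serine synthesis draws a phosphoglycerate out of glycolysis: PHGDH oxidises it, PSAT1 adds an amino group from glutamate, and PSPH removes the phosphate. SHMT2 in mitochondria and SHMT1 in the cytosol pass a carbon of serine to tetrahydrofolate. MTHFD2 and MTHFD1L in mitochondria and MTHFD1 in the cytosol then carry it through the oxidation states used to make purines, thymidylate and methionine. Cultured dividing cells are known to draw on this pathway, and several of its genes are known targets of ATF4, the transcription factor of the amino acid response.

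Libraries held 17779692 to 27599686 counts, and the members between 480 counts (PSPH in JQ1 replicate 1) and 29262 counts (PHGDH in H2A DMSO replicate 1). JQ1 replicate 1 stood apart, with 16.5% of its counts on the mitochondrial genome, where the remaining JQ1 libraries had 3.04% to 3.69%. So did E92K DMSO replicate 4, with 7.45%, where the remaining E92K libraries had 3.77% to 4.95%. Pinometostat libraries ranged over 4.43% to 5.04% and H2A DMSO libraries over 3.66% to 4.02%. Counts of genes are therefore also given without both of those libraries. All 6 markers typical of HEK cells were detected in every library. Levels are given as CPM (counts scaled to a common library size, with TMM factors, the trimmed mean of M values). Of the blood markers, PTPRC and CD3E had 0 to 2 counts each, CD34 had 1 to 20, and the globin HBG1 had 0 in every library. Of the neuronal markers, the neurofilaments NEFM (83.6 to 603 CPM) and NEFL (62.9 to 150 CPM) far exceeded TUBB3 (0.537 to 2.75 CPM). The fibroblast markers COL1A1 (107 to 351 CPM), COL3A1 (15.6 to 37.9 CPM) and DCN (1.59 to 6.02 CPM) were detected throughout. In bulk RNA, fewer cells of a type and less RNA per cell cannot be told apart.

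Per exonic length, the level of the members in H2A DMSO cells spanned a wide range. On the TPM scale, which divides counts by exonic length and sets the same sum in each library, PSAT1 was highest at 919 ± 49.3, and PHGDH followed at 570 ± 72.6 (SD, n = 4 each, here and below). This order of genes depends on the listed exonic lengths, such as 2188 bases for PSAT1 and 5622 for PHGDH. In CPM, without division by length, PHGDH had 984 ± 77.5 and PSAT1 620 ± 25.3. ASNS (404 ± 31.9 TPM) and SHMT2 (369 ± 46.8 TPM) overlapped over the 4 libraries, while MTHFD2 (243 ± 10.6 TPM) lay below both. PCK2 (119 ± 21.8 TPM), MTHFD1 (101 ± 9.56 TPM) and PSPH (84.8 ± 11.8 TPM) overlapped in their ranges, as did PSPH and MTHFD1L (71.7 ± 6.32 TPM). SHMT1 was lowest at 20.6 ± 2.03 TPM, so that the mitochondrial SHMT2 exceeded its cytosolic counterpart in every library, by a ratio of 13.3 to 20.6.

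Pinometostat cells showed lower levels of part of the group. By edgeR's quasi-likelihood test on the counts, with Benjamini-Hochberg adjustment over all genes tested, PHGDH, PCK2 and SHMT1 fell relative to H2A DMSO, 3 of the 10 members, where 4.58% of all genes tested were called lower and 3.62% higher. No member rose. For 6 of the 10, every pinometostat library lay below every H2A DMSO library, which held for 13.5% of all genes tested. The median log2 fold change was -0.28 over the members and 0.03 over all genes tested, and 8 of 10 values were below 0. Leaving out JQ1 replicate 1 and E92K replicate 4, which enter this comparison only through the scaling, the filter and the shared estimate of the spread, gave 6 members lower (PHGDH, PCK2, SHMT1, SHMT2, MTHFD1 and MTHFD1L), where 14.5% of all genes were called lower. The count was 1 without H2A DMSO replicate 1, 6 without JQ1 replicate 1 and 5 without E92K replicate 4 or JQ1 replicate 4. It was 2 without H2A DMSO replicate 3 or any 1 pinometostat library. All genes called in either direction, 1419 with 16 libraries, also moved. They numbered 283 without H2A DMSO replicate 1 and 3701 without JQ1 replicate 1. Without H2A DMSO replicate 3 they numbered 676, and without 1 pinometostat library 447 to 718. For the fits without E92K replicate 4 or JQ1 replicate 4 the count of all genes is not given here. The mitochondrial share of counts was higher in every pinometostat library than in every H2A DMSO library. With the mitochondrial genome genes left out of the fit, 5 members were called lower, where 1208 of 17250 genes were. The 6 HEK-typical markers summed to 342 to 386 CPM in pinometostat cells and 426 to 499 CPM in H2A DMSO cells, without overlap. The 3 neuronal markers summed to 159 to 248 CPM in pinometostat cells and 229 to 346 CPM in H2A DMSO cells, and the 3 fibroblast markers to 124 to 220 CPM in pinometostat cells and 202 to 243 CPM in H2A DMSO cells. Blood, hepatocyte and endothelial markers summed to under 1 CPM in every library. The part of these markers in the result was not tested.

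**Figure D1:**
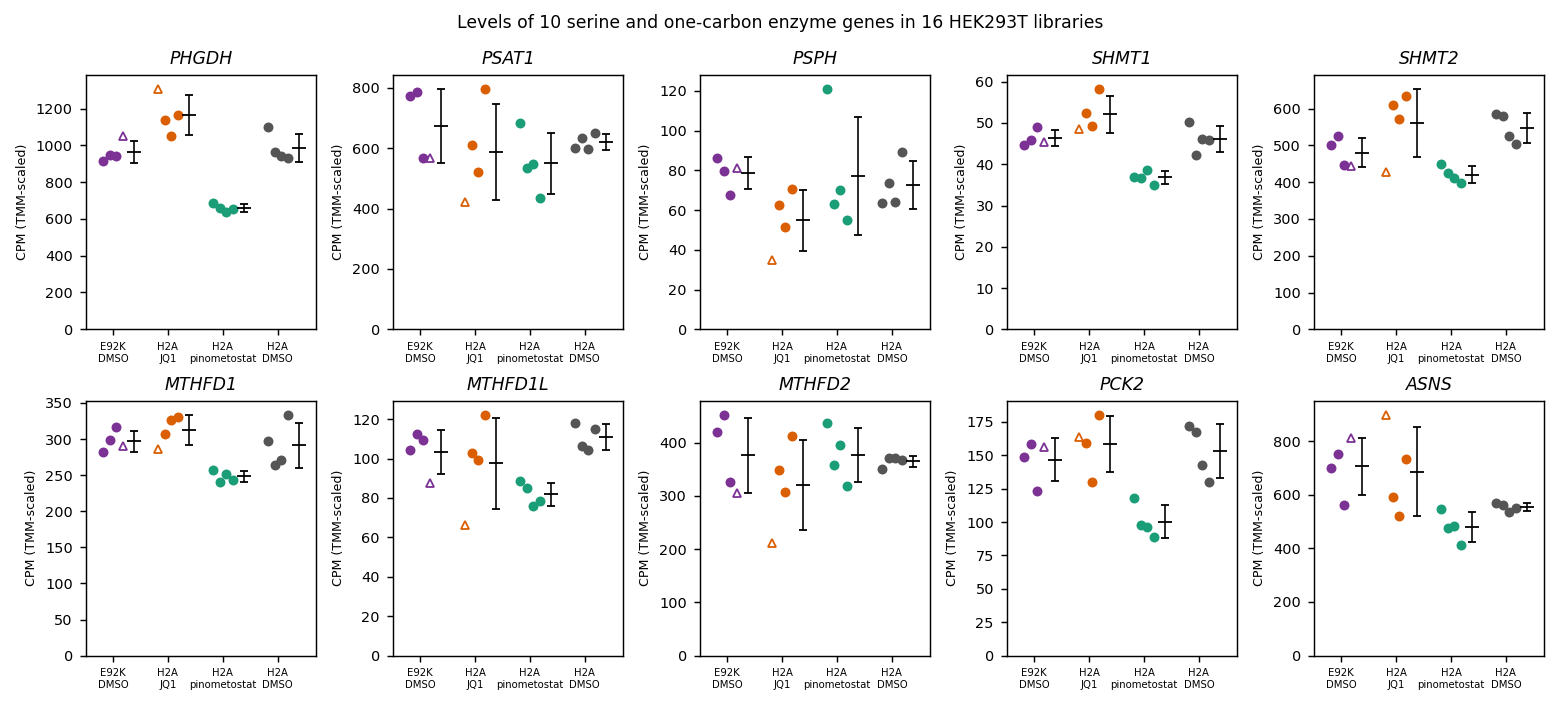
Level of each member in CPM (linear axis from 0, TMM-scaled) in the 16 libraries by group, E92K DMSO, JQ1, pinometostat and H2A DMSO from left to right. Points are libraries, bars are mean ± SD over 4 libraries, and open triangles mark JQ1 replicate 1 and E92K replicate 4. All pinometostat points lie below all H2A DMSO points for PHGDH, SHMT1, SHMT2, MTHFD1, MTHFD1L and PCK2.

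In E92K cells no member passed the test against H2A DMSO, where 0% of all genes tested did. The median log2 fold change was 0.02 over the members and 0.00 over all genes, and individual values ran from -0.19 (SHMT2) to 0.35 (ASNS). At an unadjusted p below 0.05, edgeR counted 1 member (ASNS) and 1296 of all genes. DESeq2 and limma-voom called 0 members, and DESeq2 called 4 of all genes. Without the 2 libraries that stood apart edgeR called 0 members and 0.0172% of all genes.

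JQ1 cells likewise had 0 members past the edgeR test against H2A DMSO, where 17.6% of all genes passed it, 7.16% higher and 10.4% lower. Here 1 member (PHGDH) had an unadjusted p below 0.05 in edgeR, as did 5379 of the 17306 genes tested. Limma-voom called 0 members, and DESeq2 called PHGDH higher, where it called 1680 of all genes higher. The median log2 fold change was 0.04 over the members and 0.04 over all genes. Without the 2 libraries that stood apart the count of members stayed at 0, against 24.1% of all genes.

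JQ1 and pinometostat cells differed from each other in dose, time and compound. In JQ1 cells 6 of the 10 members were higher than in pinometostat cells (PHGDH, PCK2, SHMT1, SHMT2, MTHFD1 and ASNS), where 16.8% of all genes were called higher, and 0 members were lower, where 17.4% were. MTHFD1L (0.25, SE 0.14, edgeR adjusted p = 0.179) was also called higher without JQ1 replicate 1 (0.43, edgeR adjusted p = 0.00311). PSPH (-0.50, SE 0.22, edgeR adjusted p = 0.0971) was called lower without pinometostat replicate 4 (-0.63, edgeR adjusted p = 0.0484). It was also called lower with no filter on low counts (-0.51, edgeR adjusted p = 0.0142), where MTHFD1 lost its call (0.31, edgeR adjusted p = 0.138). The count of members called higher was 7, with MTHFD1L added, without the 2 libraries that stood apart (21.6% of all genes), and 1 (PHGDH) when the deposited TPM values were tested on the log2(TPM + 1) scale. PHGDH alone was called higher in E92K than in pinometostat cells, 1 of 10 members where 0.168% of all genes were. For 5 of 10 members the E92K libraries all lay above the pinometostat libraries, as for 7.92% of all genes. That count of calls was 6 without JQ1 replicate 1 alone and 6 without both libraries that stood apart (5.29% of all genes). It was 0 without E92K replicate 4, any other E92K library, any pinometostat library, JQ1 replicate 2, or H2A DMSO replicate 2 or 3. The share of all genes is not given for these fits without 1 library, so their counts cannot be read as particular to the members. Between E92K and JQ1 cells 0 members were called, where 22.9% of all genes were. At an unadjusted p below 0.05 edgeR counted 2 members (PHGDH and PSPH) and 5955 of all genes. DESeq2 and limma-voom each called 1 member lower, where they called 2297 and 1804 of all genes lower. The edgeR count of members called was 1 without JQ1 replicate 1, JQ1 replicate 3, E92K replicate 4, pinometostat replicate 1 or H2A DMSO replicate 1. For those fits, too, the share of all genes is not given. Without the 2 libraries that stood apart, 2 members (PHGDH and SHMT2) were lower in E92K than in JQ1 cells, where 14.8% of all genes were. The same pinometostat and H2A DMSO libraries recur in these comparisons, so their counts are not independent.

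**Figure D2:**
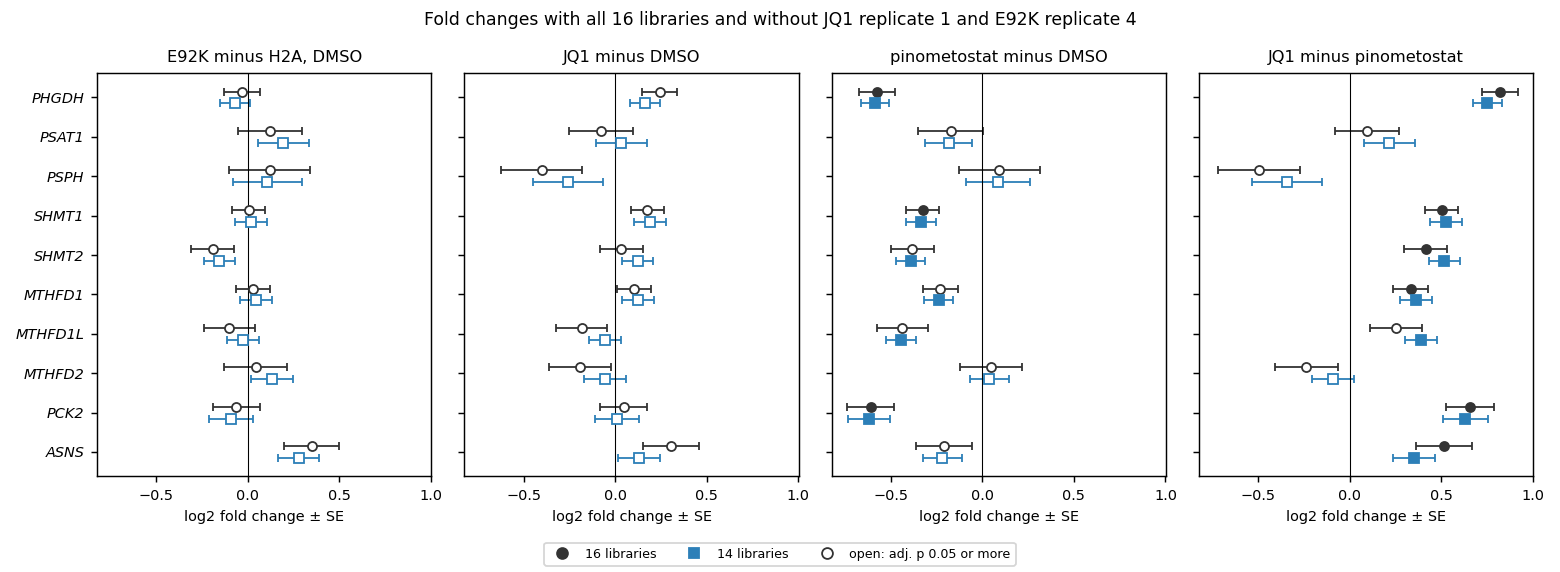
Log2 fold changes ± SE of the 10 members in 4 comparisons, first-named group minus second (linear axis, edgeR quasi-likelihood fit). Dark circles use 16 libraries, blue squares leave out JQ1 replicate 1 and E92K replicate 4, and open symbols have an adjusted p of 0.05 or more. In pinometostat minus DMSO, filled symbols lie left of 0, for 3 members with 16 libraries and 6 with 14.

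PHGDH, at chr1:119659798-119744215 on the plus strand in the files, catalyses the first and committed step of serine synthesis. Its level was 687, 661, 638 and 652 CPM in pinometostat cells, against 1099, 966, 942 and 931 CPM in H2A DMSO cells, without overlap and with a gap wider than the spread inside the pinometostat group. The fitted level in pinometostat cells was 0.670 times that in H2A DMSO cells (log2 fold change -0.58, SE 0.10, adjusted p = 0.00542, edgeR), lower in 4 of 4 libraries. This call held under all 28 alternatives tried, at -0.72 to -0.54. In E92K cells PHGDH stood at 913, 948, 941 and 1049 CPM, overlapping the H2A DMSO libraries, with a log2 fold change of -0.03 (SE 0.10, edgeR adjusted p = 0.926). JQ1 cells had 1306, 1138, 1049 and 1165 CPM, the highest group mean of the 4 on the CPM scale but overlapping H2A DMSO, and the log2 fold change of 0.24 (SE 0.10) had an edgeR adjusted p of 0.0985. On the TPM scale PHGDH averaged 555 ± 115 in JQ1 cells and 570 ± 72.6 in H2A DMSO cells, and the difference turned to -0.06 on the log2(TPM + 1) scale. JQ1 exceeded pinometostat cells by 0.82 on the log2 scale (SE 0.10, edgeR adjusted p = 1.00e-05), the largest difference of any member between those groups, and E92K exceeded them by 0.55 (SE 0.10, edgeR adjusted p = 0.0317). This E92K call was lost in 14 of the 28 alternatives, among them leaving out any 1 E92K or pinometostat library (edgeR adjusted p = 0.0621 to 0.125).

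PSAT1, at chr9:78297143-78330093 on the plus strand, the aminotransferase of the second step, varied more among replicates than PHGDH in every group but H2A DMSO. It had 683, 534, 547 and 436 CPM in pinometostat cells against 600, 634, 599 and 649 CPM in H2A DMSO cells, where its coefficient of variation was 4.08%. The groups overlapped, and the log2 fold change of -0.17 (SE 0.18) did not pass the test (edgeR adjusted p = 0.571). In E92K cells it had 774, 786, 566 and 569 CPM, 2 libraries above every H2A DMSO library and 2 below, and in JQ1 cells 421, 612, 521 and 796 CPM, which spanned the H2A DMSO values on both sides. Its coefficients of variation in those 2 groups were 18.2% and 27.1%.

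PSPH, at chr7:56011051-56051604 on the minus strand, the phosphatase of the last step, did not follow PHGDH either. Pinometostat cells had 121, 63.1, 70.3 and 55.0 CPM, of which the first exceeded every other library of the study and the rest lay close to the 63.4, 73.5, 63.8 and 89.1 CPM of H2A DMSO cells. The log2 fold change was 0.09 (SE 0.22, edgeR adjusted p = 0.833). Levels were 86.3, 79.8, 67.6 and 81.3 CPM in E92K cells and 34.8, 62.4, 51.2 and 70.6 CPM in JQ1 cells. The JQ1 log2 fold change of -0.40 (SE 0.22) missed the threshold against H2A DMSO (edgeR adjusted p = 0.235), and replicate 1 was the lowest of all 16 libraries.

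Of the hydroxymethyltransferases, SHMT1, at chr17:18327860-18363563 on the minus strand, acts in the cytosol. It had 37.0, 36.6, 38.7 and 34.9 CPM in pinometostat cells against 50.2, 42.3, 46.2 and 45.9 CPM in H2A DMSO cells. The groups did not overlap, and it fell, with a log2 fold change of -0.33 (SE 0.09, adjusted p = 0.0345, edgeR). That call was lost in 11 of the 28 alternatives, among them leaving out any 1 pinometostat library (edgeR adjusted p = 0.0575 to 0.093) or H2A DMSO replicate 1 or 3 (edgeR adjusted p = 0.106 and 0.0775). E92K cells held 44.6, 45.9, 49.1 and 45.5 CPM, and JQ1 cells 48.4, 52.4, 49.3 and 58.3 CPM, both overlapping H2A DMSO. SMCR8, on the other strand, shares 196 exonic bases with SHMT1 and had 125 to 853 counts, and the sources used here do not say whether counting used strand, so reads of such pairs cannot be told apart.

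SHMT2, at chr12:57229327-57234935 on the plus strand, is the mitochondrial enzyme. In pinometostat cells it had 449, 426, 411 and 397 CPM, against 586, 580, 525 and 503 CPM in H2A DMSO cells, again without overlap. Its log2 fold change of -0.38 (SE 0.12) lay just outside the threshold (edgeR adjusted p = 0.0531), and it was called under 12 of the 28 alternatives. These include leaving out JQ1 replicate 1 (-0.44, edgeR adjusted p = 0.00222), E92K replicate 4 (-0.44, 0.0269), E92K replicate 3 (-0.40, 0.0428), JQ1 replicate 4 (-0.40, 0.0404) or H2A DMSO replicate 4 (-0.42, 0.0495). E92K cells had 501, 526, 448 and 445 CPM, and JQ1 cells had 428, 609, 571 and 636 CPM, where replicate 1 was the one library under the H2A DMSO values. Against pinometostat cells, JQ1 cells were 0.41 higher on the log2 scale (SE 0.12, edgeR adjusted p = 0.0112).

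Among the folate enzymes, MTHFD1, at chr14:64388031-64463457 on the plus strand, is the trifunctional cytosolic one. Its levels were 258, 240, 252 and 243 CPM in pinometostat cells against 297, 264, 271 and 333 CPM in H2A DMSO cells, where the closest libraries of both groups were a few CPM apart. The log2 fold change of -0.23 (SE 0.09) did not pass (edgeR adjusted p = 0.134), except in 4 alternatives, one of them leaving out JQ1 replicate 1 (-0.28, edgeR adjusted p = 0.025). E92K cells had 282 to 316 CPM and JQ1 cells 287 to 330 CPM, and JQ1 exceeded pinometostat cells by 0.33 (SE 0.09, edgeR adjusted p = 0.0111). ZBTB25 and AL122035.2, on the other strand, share 178 and 756 exonic bases with MTHFD1 and had 205 to 440 and 4 to 45 counts.

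MTHFD1L, at chr6:150865549-151101887 on the plus strand, makes formate in mitochondria. Pinometostat cells had 88.5, 84.8, 75.9 and 78.4 CPM, and H2A DMSO cells 118, 106, 105 and 115 CPM. These did not overlap, yet the log2 fold change of -0.44 (SE 0.14) had an edgeR adjusted p of 0.0633. It was called in 9 alternatives, which include leaving out JQ1 replicate 1 (-0.49, edgeR adjusted p = 0.00209), E92K replicate 4 (-0.49, 0.0308) or JQ1 replicate 4 (-0.45, 0.0364). In E92K cells the values were 104, 112, 110 and 87.4 CPM, and in JQ1 cells 66.4, 103, 99.1 and 122 CPM, with the lowest value of each group in the library that stood apart.

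MTHFD2, at chr2:74198562-74217565 on the plus strand, is the mitochondrial dehydrogenase and cyclohydrolase that precedes MTHFD1L. As for PSAT1 and PSPH, its pinometostat values, of 437, 358, 396 and 318 CPM, lay on both sides of the 351, 372, 372 and 367 CPM of H2A DMSO cells. Its log2 fold change was 0.05 (SE 0.17, edgeR adjusted p = 0.897). E92K cells had 421, 452, 327 and 306 CPM, and JQ1 cells 211, 349, 307 and 413 CPM. SLC4A5, on the other strand, shares 1324 exonic bases with MTHFD2 and had 6 to 47 counts.

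Of the linked enzymes, PCK2, at chr14:24094053-24110598 on the plus strand, is the mitochondrial phosphoenolpyruvate carboxykinase. It had 118, 97.7, 96.5 and 88.8 CPM in pinometostat cells against 172, 168, 143 and 130 CPM in H2A DMSO cells, without overlap. It fell, with a log2 fold change of -0.61 (SE 0.13, adjusted p = 0.0119, edgeR). The call held in 26 of 28 alternatives, and leaving out H2A DMSO replicate 1 brought it to the threshold (-0.57, edgeR adjusted p = 0.0501). E92K cells had 149, 158, 123 and 156 CPM and JQ1 cells 164, 159, 130 and 180 CPM, both within or close to the H2A DMSO span. JQ1 exceeded pinometostat cells by 0.66 (SE 0.13, edgeR adjusted p = 0.000817).

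ASNS, at chr7:97852118-97872542 on the minus strand, makes asparagine from aspartate and glutamine. The pinometostat libraries had 545, 477, 484 and 412 CPM, against 570, 564, 534 and 551 CPM in the H2A DMSO libraries. Only 1 pinometostat library reached the H2A DMSO range, and the log2 fold change of -0.21 (SE 0.15) did not pass (edgeR adjusted p = 0.408). E92K cells had 701, 751, 561 and 811 CPM, 3 of 4 above every H2A DMSO library, and the log2 fold change of 0.35 (SE 0.15) had an edgeR adjusted p of 0.656. In JQ1 cells ASNS had 897, 592, 519 and 735 CPM, a span that contained the H2A DMSO values (log2 fold change 0.31, SE 0.15, edgeR adjusted p = 0.179). That direction turned on the log2(TPM + 1) scale (-0.02). JQ1 exceeded pinometostat cells by 0.52 (SE 0.15, edgeR adjusted p = 0.0136). The pseudogene ASNSP1 had 125 to 448 counts, at most 3.68% of those of ASNS in the same library. The 17 other pseudogene copies of members in the files had at most 5 counts.

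Ratios between members within a library, on the TPM scale, do not depend on how libraries are scaled and are given as a description. The ratio of MTHFD2 to SHMT2 was 0.968, 0.835, 0.956 and 0.796 in pinometostat cells against 0.594, 0.637, 0.704 and 0.725 in H2A DMSO cells, with no overlap. MTHFD2 to MTHFD1L gave 5.09, 4.35, 5.37 and 4.19 in pinometostat cells against 3.07, 3.61, 3.67 and 3.29 in H2A DMSO cells, also with no overlap. Within the mitochondrial folate pathway, MTHFD2 was thus higher relative to both partners in each pinometostat library. PSAT1 to PHGDH averaged 2.14 ± 0.344 in pinometostat cells and 1.63 ± 0.164 in H2A DMSO cells, where 1 pinometostat library lay inside the H2A DMSO range. PCK2 to ASNS ran lower in pinometostat cells, at 0.212 to 0.230, than in H2A DMSO cells, at 0.251 to 0.321, and it was 0.204 to 0.234 in E92K cells and 0.194 to 0.286 in JQ1 cells. The E92K libraries thus lay below the H2A DMSO libraries in this ratio as well. ASNS to PSAT1 reached 1.05 in JQ1 replicate 1 and 0.700 in E92K replicate 4, above the 0.392 to 0.489 of the other 14 libraries.

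**Figure D3:**
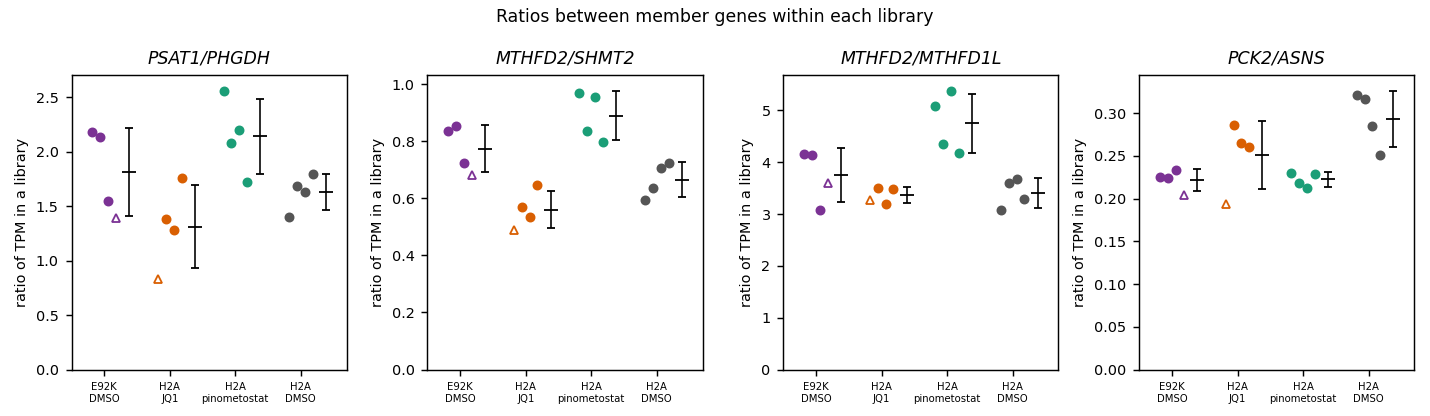
Ratio of TPM between pairs of members in each library (linear axes from 0, no unit), with groups, bars (mean ± SD, n = 4) and open triangles as in the plot of levels. Both MTHFD2 ratios lie at 0.796 or more, and at 4.19 or more, in pinometostat cells, above every H2A DMSO library.

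The summed TPM of the 10 members was 1902 to 2633 in pinometostat cells and 2689 to 3140 in H2A DMSO cells, without overlap. It was 2333 to 3190 in E92K cells and 1443 to 3436 in JQ1 cells, where replicate 1 gave the lowest sum and the other JQ1 libraries 2557 or more. TPM sums to a fixed total in each library, and the mitochondrial counts of JQ1 replicate 1 take up part of that total.

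Replicates of a group differed from each other along shared lines. Deviations of log2 CPM from the group mean were correlated across the 16 libraries (Pearson's r, a description over libraries that share sequencing and groups). PSAT1 and MTHFD2 had r = 0.95, and 0.97 without the 2 libraries that stood apart. PSAT1 and PSPH had 0.84 and 0.83. These 3 genes, none of which was called in pinometostat cells, thus varied together between replicates. SHMT2 and MTHFD2 had 0.88 and 0.69, and PCK2 and ASNS 0.72 and 0.86. Other pairs turned on the 2 libraries: PSAT1 and ASNS had 0.13 over 16 libraries and 0.97 over 14, MTHFD2 and ASNS had -0.12 and 0.95, SHMT2 and PCK2 had 0.40 and 0.96, and PHGDH and PSAT1 had -0.26 and 0.30. MTHFD1 and MTHFD2, from the cytosolic and the mitochondrial branch, had 0.30 and -0.04.

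**Figure D4:**
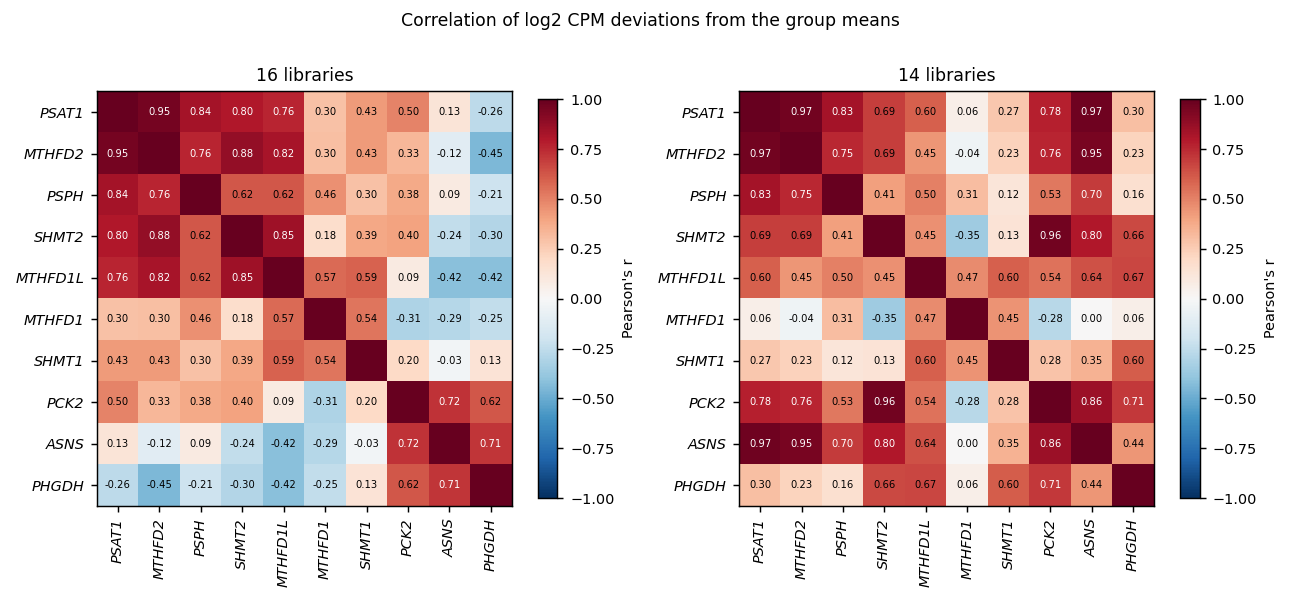
Pearson's r between members of the deviations of log2 CPM from the group mean (colour scale from -1 to 1), over 16 libraries on the left and over 14, without JQ1 replicate 1 and E92K replicate 4, on the right. PSAT1 and MTHFD2 have 0.95 and 0.97, while the row of ASNS differs between the panels.

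Outside the members, the 5 genes with a mean of at least 5 CPM whose log2 CPM over the 16 libraries was most like the mean standardised level of the members, of 11488 genes compared, were YARS (Pearson's r = 0.95), GOT1 (0.90), WARS (0.89), GARS (0.88) and SMARCA5 (0.87). YARS and WARS are the cytosolic tyrosyl- and tryptophanyl-tRNA synthetases, and GARS is a glycyl-tRNA synthetase. GOT1 is the cytosolic aspartate aminotransferase and SMARCA5 a chromatin remodelling ATPase. Over the 14 libraries the values were 0.96, 0.95, 0.94, 0.93 and 0.87 in the same order.

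Neighbours of the members in metabolism were counted by list, and the counts are read against the 3.62% of all genes called higher and 4.58% called lower in pinometostat relative to H2A DMSO cells. Of 21 tested genes of the folate and one-carbon cycle, 1 rose and 1 fell, shares near those of all genes. MTHFD2L, a mitochondrial relative of MTHFD2, rose to 20.6 ± 1.42 CPM in pinometostat cells, against 14.3 ± 2.40 CPM in H2A DMSO cells (log2 fold change 0.53, SE 0.14, edgeR adjusted p = 0.0289). GLDC, of the glycine cleavage system, fell to 37.2 ± 3.12 CPM, against 52.0 ± 3.69 CPM in H2A DMSO cells (-0.48, SE 0.12, edgeR adjusted p = 0.0205). The median log2 fold change of that list was 0.03, as over all genes. Among 9 genes of lower glycolysis and phosphoenolpyruvate 3 fell, the pyruvate kinase PKM (-0.39), the enolase ENO1 (-0.38) and the pyruvate carboxylase PC (-0.46), and the list's median was -0.25. Among 12 enzymes of aspartate, asparagine, glutamine and proline 1 fell, the proline enzyme PYCR1 (-0.43), with a median of -0.28 for the list. None was called of 11 genes in a list of serine users, transsulfuration and glutathione enzymes (the serine user list). The same held for 12 purine synthesis enzymes, and the medians were -0.07 and -0.10. Of 11 regulators 1 fell: ATF5, a relative of ATF4, had 6.82 ± 1.07 CPM in pinometostat cells and 11.7 ± 1.82 CPM in H2A DMSO cells (-0.77, SE 0.15, edgeR adjusted p = 0.00821). ATF4 itself averaged 978 ± 95.5 CPM in pinometostat cells and 1080 ± 15.01 CPM in H2A DMSO cells (-0.14, SE 0.11, edgeR adjusted p = 0.425). Without the 2 libraries that stood apart the calls were 3 higher and 2 lower for the folate list, 5 lower for glycolysis, 7 for the aspartate list, 4 for purine synthesis, 1 for the serine user list and 2 for regulators, where 12.9% of all genes were called higher and 14.5% lower.

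In JQ1 relative to H2A DMSO cells, where 7.16% of all genes were called higher and 10.4% lower, PC and ATF5 were called again, both higher where they had been lower in pinometostat cells. Of the 21 folate genes 2 rose, among them the polyglutamate synthase FPGS (0.32), and 2 fell, the mitochondrial folate carrier SLC25A32 (-0.42) and the cell surface folate carrier SLC19A1 (-0.33). Of 11 genes in the serine user list 3 rose, namely the glutathione synthesis enzymes GCLC (0.62) and GSS (0.36) and the serine palmitoyltransferase subunit SPTLC2 (0.47). PPAT, the first committed enzyme of purine synthesis, rose (0.51), as did PC (0.47) and the glutamine synthetase GLUL (0.52), each as the 1 called gene of its list. Counts of 2 in 21 and 1 in 12 lie near the shares of all genes. Of 11 regulators 3 rose and 3 fell. MYC rose to 658 ± 320 CPM in JQ1 cells, against 228 ± 42.3 CPM in H2A DMSO cells (1.53, SE 0.38, edgeR adjusted p = 0.00948). ATF4 rose to 1379 ± 194 CPM in JQ1 cells, against 1080 ± 15.01 CPM in H2A DMSO cells (0.35, SE 0.11, edgeR adjusted p = 0.0287), and ATF5 rose (0.46). TRIB3, an ATF4 target and inhibitor, fell by 1.57 (SE 0.17, edgeR adjusted p = 4.06e-06), to 12.03 ± 0.580 CPM in JQ1 cells, against 35.7 ± 2.02 CPM in H2A DMSO cells, and CEBPG and NFE2L2 fell by 0.55 each. Without the 2 libraries that stood apart, ATF5 lost its call (edgeR adjusted p = 0.0862), and the calls were 5 higher and 2 lower for the folate list, 4 higher and 1 lower for the serine user list, 2 higher for the aspartate list, 1 higher each for purine synthesis and glycolysis, and 3 higher and 3 lower for regulators, where 10.2% of all genes were called higher and 13.8% lower. No gene of any list was called in E92K relative to H2A DMSO cells.

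Promoter windows of 250 bases before to 50 after the start, from RefSeq on GRCh38.p14, were searched on both strands for the core of the C/EBP-ATF response element, TGATGNAA, and for the E-box CACGTG, which binds MYC. Windows were given for 8 of the 10 members (PSPH and SHMT2 were not among them). CACGTG reads the same on both strands and shares no bases with the other motif. The first motif occurred in ASNS and MTHFD1L and the second in MTHFD1L and MTHFD1. The stretches around them lie in exons of the files' gene models, in whole or in part. They are shown 5′ to 3′ in the direction of the gene, with the motif in capitals, so that the letters behind each match can be read:
ASNS, chr7:97872458-97872487, minus strand: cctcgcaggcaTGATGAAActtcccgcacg
MTHFD1L, chr6:150866346-150866375, plus strand: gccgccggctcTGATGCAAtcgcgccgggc
MTHFD1L, chr6:150866320-150866349, plus strand: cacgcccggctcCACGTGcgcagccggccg
MTHFD1, chr14:64388326-64388355, plus strand: ccagtccctaagCACGTGggttgggttgtc
The ASNS match begins at position -68 from the start and that of MTHFD1 at -15. MTHFD1L has several annotated starts, so the position of its matches differs with the transcript. Both MTHFD1L stretches overlap by a few bases, so its motifs lie close together. Each motif was thus found in 2 of 8 members, where MTHFD1L has 4 windows and ASNS 2. Of all genes with RefSeq windows of this length, 4.46% held TGATGNAA in at least 1 window and 8.77% held CACGTG, and of all windows 3.62% and 7.26% did. The windows of PHGDH, PCK2 and SHMT1, the 3 members that fell in pinometostat cells, held neither set of letters, and the same was true of PSAT1 and MTHFD2. The PHGDH window, chr1:119711684-119711983, lies inside the gene span of the files, which begins at 119659798. The bases around the beginning of that span were therefore not searched.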

How the data were processed

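Total RNA of 16 HEK293T samples was sequenced, and samples were grouped by their titles and treatment labels. The counts deposited by the authors are whole numbers for each gene and library, and the per-sample files and the series table agree in 920000 of 920000 cells. The authors also deposited TPM values, and each equals the count over the listed exonic length, rescaled to 1 sum for all libraries (within 0.0001 for 920000 of 920000 values). The aligner, counter, strand setting and genome build are not stated in the labels or headers used here. Coordinates were taken from the files. They match GENCODE 29, on GRCh38, at start and end for 54784 of 56898 shared identifiers (96.3%), and for every member but PHGDH.

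Counts were fitted in edgeR 4.0.16 (R 4.3.3) with TMM factors, in 1 quasi-likelihood model of the 4 groups over 16 libraries (12 residual degrees of freedom). Genes were kept by filterByExpr (minimum count 10, minimum total 15). P-values were adjusted by Benjamini-Hochberg over all 17306 genes for each comparison, with a threshold of 0.05. The SE is the absolute log2 fold change over the root of its F value. Levels are CPM with TMM factors, or the deposited TPM where genes are compared with each other. Correlations used log2 CPM with a prior count of 2. Alternatives were DESeq2 1.42.0, limma-voom (limma 3.58.1), other scalings and filters, 8-library fits, a replicate block, log2(TPM + 1) and log2(TPM + 0.1) with limma, and leaving out libraries.

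The members and the gene lists were chosen with earlier results of these data known. All 10 members are named. From each list and comparison, up to 4 called genes with the smallest adjusted p and a mean of at least 5 CPM were named, except 1 that is not reported here. ATF4 and, in JQ1 cells, ATF5 were named beyond that after their values were seen. The dose of pinometostat is the sample field's, since the treatment text gives it in millimolar. The mitochondrial shares of JQ1 replicate 1 and E92K replicate 4 have 95% Wilson intervals of 16.45% to 16.49% and 7.44% to 7.46%, which cover counting error only.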

Additional observations from a re-analysis of the deposited data

How the results depend on the processing

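The lower PHGDH level in pinometostat relative to H2A DMSO cells kept its call in all 28 alternatives. Members called in that comparison (3) numbered 6 with DESeq2, 5 with its size factors, 5 without mitochondrial genome genes, 5 with a filter of 50 counts in 4 libraries, 6 in the 8 libraries of both groups alone, 1 on log2(TPM + 0.1), and 6 without JQ1 replicate 1 and E92K replicate 4 together. All genes called there (1419) numbered 2293 with DESeq2, 4610 in the 8 libraries alone, 534 with the replicate block, 457 on log2(TPM + 1), 403 on log2(TPM + 0.1) and 4782 without the 2 libraries. Genes called lower there (793 of 17306) numbered 991 of 17306 with DESeq2 size factors and 1073 of 13559 with the filter of 50 counts. Leaving out 1 library gave 1 to 6 members and 283 to 3701 of all genes, with 283 without H2A DMSO replicate 1, 447 without pinometostat replicate 1 and 3701 without JQ1 replicate 1. In JQ1 minus H2A DMSO, 1 member was called by DESeq2, and of all genes (3044) 1872 in the 8 libraries alone. In E92K minus H2A DMSO, all genes called (0) numbered 4 with DESeq2, 4 with no filter, 3 without the 2 libraries, and 0 to 4 with 1 library left out. Members in E92K minus JQ1 (0) numbered 1 with DESeq2, 1 with limma-voom, 1 with no filter, 2 without the 2 libraries and 0 to 1 with 1 library left out. Of all genes, DESeq2 called 2297 and limma-voom 1804 in the direction of their member, which was lower. With no filter the member was higher, where 1993 of all genes were. Without the 2 libraries the members were lower, where 2584 of all genes were. Members in E92K minus pinometostat (1) numbered 5 with DESeq2, 2 with its size factors, 2 without mitochondrial genome genes, 3 with no filter, 3 in the 8 libraries alone, 0 with the replicate block, 0 on either TPM scale, 6 without the 2 libraries and 0 to 6 with 1 library left out. All genes called higher there (29) numbered 565 with DESeq2, 98 with its size factors, 131 without mitochondrial genome genes and 154 with no filter. They numbered 233 in the 8 libraries alone, 0 with the replicate block, 0 on either TPM scale and 923 without the 2 libraries. Members in JQ1 minus pinometostat (6, all higher) numbered 1 on either TPM scale and 4 by library size alone. With no filter they numbered 6, of which 5 were higher and 1 (PSPH) lower. All genes called higher there (2915) numbered 972 on log2(TPM + 1), 945 on log2(TPM + 0.1) and 1733 by library size alone. With no filter 2577 were higher and 2981 lower.

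Scaling moved the median of all genes. In JQ1 minus H2A DMSO it was 0.04 with TMM, -0.14 by library size alone, -0.21 on log2(TPM + 1) and -0.27 on log2(TPM + 0.1), with 1239 higher and 1805 lower calls by TMM and 433 and 2605 by library size alone. In pinometostat minus H2A DMSO the calls were 626 higher and 793 lower by TMM, 395 and 818 by library size alone, and 495 and 1208 without mitochondrial genome genes. The median of the members minus that of all genes stayed at -0.31 to -0.27 there under every scaling, filter and model tried.

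Log2 fold changes of uncalled members changed sign as follows, with log2(TPM + 1) before log2(TPM + 0.1). In E92K minus H2A DMSO they were -0.0126 and -0.0126 for PSAT1, -0.1029 and -0.1078 for SHMT1, -0.0799 and -0.0807 for MTHFD1, and -0.0909 and -0.0913 for MTHFD2. In JQ1 minus H2A DMSO they were -0.0553 and -0.0554 for PHGDH, -0.1128 and -0.1212 for SHMT1, -0.2763 and -0.2775 for SHMT2, -0.1868 and -0.1894 for MTHFD1, -0.2488 and -0.2512 for PCK2, and -0.0212 and -0.0213 for ASNS. In pinometostat minus H2A DMSO they were -0.1001 and -0.1018 for PSPH and -0.1025 and -0.1029 for MTHFD2, and in JQ1 minus pinometostat -0.0829 and -0.0832 for PSAT1. By library size alone they were -0.0299 for SHMT1 and -0.0032 for MTHFD1 in E92K, -0.0011 for SHMT1, -0.1349 for SHMT2, -0.0715 for MTHFD1 and -0.1436 for PCK2 in JQ1, and -0.0011 for MTHFD2 in pinometostat relative to H2A DMSO cells, and -0.0187 for PSAT1 in JQ1 minus pinometostat. Without mitochondrial genome genes they were -0.0135 for SHMT1 in E92K and -0.0043 for MTHFD2 in pinometostat cells. With no filter they were -0.0085 for SHMT1 in E92K, and -0.0119 for SHMT2 and -0.0058 for PCK2 in JQ1 cells. The filter of 50 counts gave -0.0041 for SHMT1 in E92K cells. Without the 2 libraries PSAT1 was 0.0328 in JQ1 cells. With 1 library left out, values in E92K minus H2A DMSO ran from -0.0982 to 0.0195 for PHGDH, -0.0414 to 0.0418 for SHMT1, -0.0215 to 0.0982 for MTHFD1 and -0.0587 to 0.1053 for MTHFD2. Those in JQ1 minus H2A DMSO ran from -0.2521 to 0.0237 for PSAT1, -0.0253 to 0.1135 for SHMT2 and -0.0266 to 0.1360 for PCK2. Those in pinometostat minus H2A DMSO ran from -0.2092 to 0.2242 for PSPH and -0.0339 to 0.1180 for MTHFD2, and PSAT1 in JQ1 minus pinometostat ran from -0.0614 to 0.2517. The cause of these changes was not tested.

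Replicate numbers did not pair the samples: same-numbered samples correlated at -0.557 to 0.238 in their deviations from the group means, over 0.1 in 2 of 24 pairs. With the replicate block 2 members were called in pinometostat minus H2A DMSO, and SHMT1 lost its call.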
